A study of Mus musculus with 8 samples.

Results

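The genes described are 10 genes of a calcium-binding and a sugar-binding protein family, out of 56923 genes in the count files. They are 8 of the S100 family (*S100a2*, *S100a4*, *S100a6*, *S100a10*, *S100a11*, *S100a13*, *S100a14* and *S100a16*) and 2 galectins (*Lgals1* and *Lgals3*). They were taken by their Ensembl identifiers, and their levels (CPM, read counts scaled to library size) were compared over 4 groups of thymic epithelial cells (TECs). *Lgals1* and *S100a2* were chosen by their CPM pattern over these 4 groups, so their values are given as a description and no test on them is used. The other members of both families are given beside them: 28 S100 and galectin genes were found in the files and 17 of them, the 10 members included, were expressed highly enough to be tested.

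Bulk RNA sequencing compared freshly isolated TECs with the same cells grown on plastic or in a hydrogel. All cells came from wild-type (WT) C57BL/6J mouse embryos at E16.5 and had been sorted as EpCAM-positive cells of the thymus. *In vivo* TECs were lysed right after the sort. 2D-cultured TECs grew for 3 days on plates coated with laminin and were taken when confluent. Thymic epithelial organoids grew in growth factor-reduced Matrigel, a basement membrane gel, and were taken at day 3 (D3) or day 7 (D7) with cold PBS. All cultures were kept in TEC medium, which held FGF7 and, as stated for the organoids, thiazovivin in the first days. Each group had 2 biological replicates, for 8 libraries in all. As these are bulk samples, fewer cells of a type and less RNA per cell cannot be told apart.

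S100 proteins are small cytosolic proteins with a pair of EF-hands, helix-loop-helix motifs that in most of these proteins bind calcium. In most of them, bound calcium opens a surface that holds target proteins. Among the targets are annexins, which attach to membranes, and the heavy chain of non-muscle myosin. Galectins bind sugars that carry galactose on glycoproteins such as integrins. In the thymus, galectins made by epithelial cells are known to act on developing T cells.

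The libraries held between 5084715 and 7612532 counts, and 3 counts, taken as the floor of detection in a library, equalled 0.371 to 0.592 CPM. *Epcam*, the antigen of the sort, was between 191 and 812 CPM in every library. *Foxn1*, the transcription factor that defines TECs, was at 223 and 273 CPM *in vivo*, at 8.53 and 4.81 CPM in 2D, at 8.77 and 9.63 CPM in D3 organoids and at 60.5 and 85.0 CPM in D7 organoids. Both *in vivo* libraries also held thymocyte transcripts: the 13 thymocyte markers summed to 806 and 351 CPM there and to between 6.80 and 13.4 CPM in the cultures. Macrophage markers *Csf1r* and *C1qa* were at or below 0.93 CPM in each library, while *Lyz2*, also of myeloid cells, reached 12.1 and 10.3 CPM at D7. Of the mesenchyme markers, *Pdgfra* was at or below 1.45 CPM, while *Dcn* was at 18.2 and 23.0 CPM *in vivo* and at 53.4 and 50.9 CPM at D7. Endothelial markers summed to at most 13.3 CPM and erythroid markers to at most 12.5 CPM. Of 13 thymic epithelial markers 7 were higher and 6 lower in 2D than *in vivo*, 3 higher and 8 lower at D3, and 2 higher and 9 lower at D7. Over all genes 41.6%, 28.2% and 34.8% were called in these comparisons. The 13 markers summed to 8238 and 8595 CPM *in vivo* and 9738 and 9158 CPM in 2D. They summed to 2203 and 2050 CPM at D3 and 2591 and 2668 CPM at D7. Such sums are weighted to abundant genes and do not follow each marker. Of the 13, the keratin gene *Krt18* had means of 1737 CPM *in vivo*, 3369 CPM in 2D, 258 CPM at D3 and 489 CPM at D7. *Ly75* went the other way in 2D, with means of 389 CPM *in vivo*, 25.3 CPM in 2D, 20.8 CPM at D3 and 39.7 CPM at D7, and *Foxn1* also fell in 2D. The p-values rest on the spread between libraries within groups, 2 a group, estimated over all 4 groups in a single fit. An exact permutation test of 2 against 2 cannot go below 0.333. All calls therefore come from edgeR's quasi-likelihood test, adjusted over 14504 genes after Benjamini and Hochberg, at 0.05.

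The 2D culture stood out. Of the 8 members not picked for their pattern, 7 were higher in 2D than *in vivo* and none was lower. These 8 were also chosen with earlier results of these data known, so the count describes them and does not extend to both families. Of the 7 tested family genes that are no members, only *Lgals9* was called between 2D and *in vivo*, as lower. Over all genes tested, 41.6% were called in this comparison, 19.9% as higher and 21.7% as lower, and the median log2 fold change of the 8 members was 1.79 against -0.06 over all genes. The groups did not overlap for 7 of the 8, against 69.5% of all genes. In D3 organoids 2 of the 8 were higher than *in vivo* and 3 were lower, where 28.2% of all genes were called (14.1% higher and 14% lower). The groups did not overlap for 7 of the 8, against 61.7% of all genes. In D7 organoids 2 were higher and 2 were lower, where 34.8% of all genes were called (18.0% higher and 16.8% lower), and 6 of the 8 did not overlap, against 69.9% of all genes. Set against 2D at the same day of culture, D3 organoids had 7 of the 8 lower and 0 higher, where 38.3% of all genes were called (19.1% lower and 19.3% higher). D7 organoids had 6 lower and 1 higher than 2D, where 45.5% of all genes were called (21.1% lower and 24.4% higher). All 8 were free of overlap in both comparisons with 2D, against 69.2% of all genes at D3 and 75.8% at D7. Between the 2 days of organoid culture 3 of the 8 were higher at D7 and 0 lower, where 20.8% of all genes were called (10.9% higher and 9.91% lower), and 5 of the 8 did not overlap, against 64.7% of all genes. For each of the counts of 0 (lower in 2D than *in vivo*, higher at D3 than in 2D, lower at D7 than at D3) the count was also 0 at an unadjusted p below 0.05, with DESeq2 and with limma-voom. The comparisons share libraries, so their counts are not independent of each other.

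**Figure D1:**
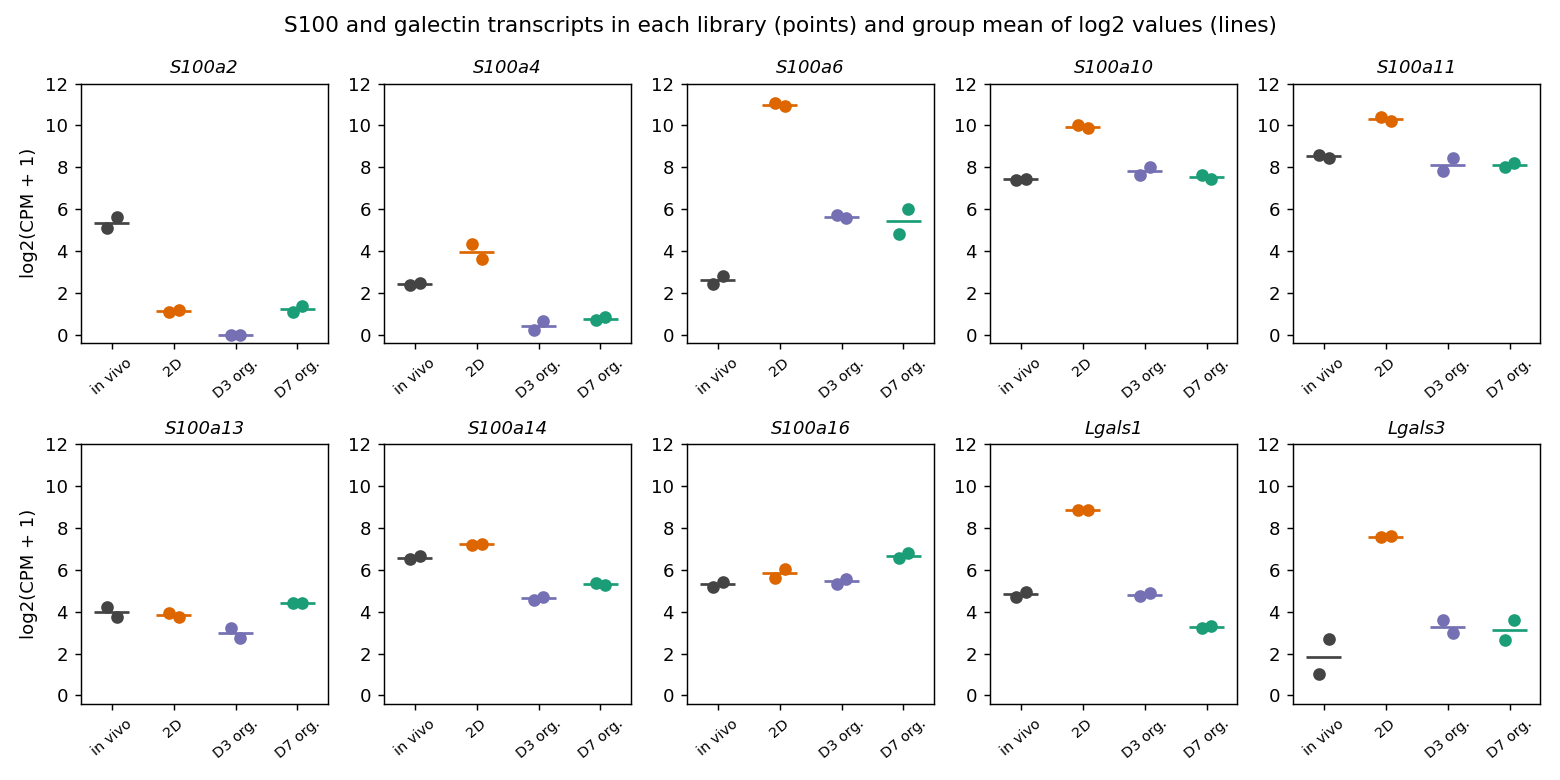
Each panel shows 1 gene on a log2(CPM + 1) axis, with a point for each library and a line at the mean of the log2 values of the group. In 7 of the 10 panels (*S100a4*, *S100a6*, *S100a10*, *S100a11*, *S100a14*, *Lgals1* and *Lgals3*) both 2D points lie above all the others, while *S100a2* is highest *in vivo* and *S100a16* and *S100a13* are highest in D7 organoids.

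The annexin-binding S100 genes had their highest levels in 2D. *S100a6*, or calcyclin, which binds annexins and the ubiquitin ligase adaptor CacyBP, was at 4.33 and 6.04 CPM *in vivo* (25 and 43 counts) and at 2124 and 1931 CPM in 2D. It was at 51.0 and 46.6 CPM in D3 organoids and at 27.6 and 63.9 CPM in D7 organoids. The *in vivo* libraries lay below all the others, the 2D libraries above all the others, and both days of organoid culture overlapped in between. The difference between 2D and *in vivo* was 384-fold, a log2 fold change of 8.59 ± 0.35 (SE) with an adjusted p of 6.9e-12 in edgeR's quasi-likelihood test. Its range over the 4 group means, 8.36 on the log2(CPM + 1) scale, was at percentile 100 of all genes tested after rounding. *S100a6* was also higher than *in vivo* in D3 organoids by 3.21 ± 0.32 (edgeR adjusted p = 7.34e-07) and in D7 organoids by 3.09 ± 0.33 (edgeR adjusted p = 1.34e-06), on the log2 scale. It was lower than in 2D by 41.6-fold at D3 and 45.1-fold at D7. D7 and D3 organoids did not pass the test against each other (log2 fold change -0.12 ± 0.26). The D7 libraries were unequal: without replicate 2 of D7 the log2 fold change over *in vivo* was 2.39, that over 2D was -6.19, and D7 was called lower than D3 by -0.81 (edgeR adjusted p = 0.026), whereas without replicate 1 of D7 that value was 0.39.

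*S100a10*, or p11, the light chain that joins annexin A2 into a tetramer at the plasma membrane, was at 166 and 176 CPM *in vivo* and at 1031 and 936 CPM in 2D. It was at 201 and 256 CPM in D3 organoids and at 198 and 173 CPM in D7 organoids. The 2D libraries were far above the other 6, which lay within 166 to 256 CPM. The rise in 2D over *in vivo* was 5.73-fold (log2 2.52 ± 0.16, edgeR adjusted p = 1.51e-09). Against *in vivo*, the log2 fold changes of 0.41 ± 0.16 (D3 organoids) and 0.11 ± 0.16 (D7 organoids) lay close to 0, and neither passed the test (edgeR adjusted p = 0.0594 and 0.622). The D3 value lay near the threshold. It was called with edgeR under library sizes alone (adjusted p = 0.0369), with ribosomal RNA genes left out (adjusted p = 0.0281), with no filter (adjusted p = 0.0111), with a replicate block (adjusted p = 0.0399) and without replicate 1 of D3 (0.57, adjusted p = 0.0201), and also with DESeq2 (adjusted p = 0.0288) and limma-voom (adjusted p = 0.0447). Both organoid groups were below 2D, by 4.31-fold at D3 and 5.30-fold at D7.

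*S100a11*, or calgizzarin, a partner of annexin A1 found at cell edges and in the cornified envelope of keratinocytes, was at 386 and 352 CPM *in vivo* and at 1359 and 1189 CPM in 2D. It was at 226 and 346 CPM in D3 organoids and at 260 and 292 CPM in D7 organoids. Here, too, only the 2D libraries stood above all the others, while the organoid libraries lay just under the *in vivo* ones. The rise in 2D was 3.44-fold (log2 1.78 ± 0.18, edgeR adjusted p = 4.4e-07). The differences from *in vivo* were -0.37 ± 0.18 at D3 and -0.42 ± 0.18 at D7 on the log2 scale and did not pass (edgeR adjusted p = 0.138 and 0.0763). Both values lay near the threshold: without replicate 2 of D3 the D3 value was -0.64 (edgeR adjusted p = 0.014), and the D7 value was called without replicate 1 or replicate 2 of D3 (edgeR adjusted p = 0.0223 and 0.0256), with a replicate block (edgeR adjusted p = 0.0447), with DESeq2 (adjusted p = 0.0458) and with limma-voom (adjusted p = 0.0434). D3 and D7 organoids were 4.45-fold and 4.62-fold below 2D. Of the 50-base words in the last 500 bases of its transcripts, 18.3% also occur in 4 other annotated genes (*Gm12854*, *Gm29240*, *Gm57150* and *Gm7665*), which held at most 0.37 CPM in a library.

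*S100a4*, which binds the heavy chain of non-muscle myosin IIA and is a marker of motile cells, had low counts throughout. It was at 4.15 and 4.49 CPM *in vivo* and at 19.1 and 11.3 CPM in 2D. It was at 0.17 and 0.56 CPM in D3 organoids (1 and 4 counts) and at 0.62 and 0.79 CPM in D7 organoids (5 and 4 counts). The 4 groups were ordered 2D, *in vivo* and then the organoids, with no overlap between 2D, *in vivo* and either organoid group. The rise in 2D was 3.49-fold (log2 1.80 ± 0.51, edgeR adjusted p = 0.00932), but without replicate 1 of 2D it was 1.38 on the log2 scale and did not pass (edgeR adjusted p = 0.174). *S100a4* fell against *in vivo* by 3.45 ± 0.71 at D3 (edgeR adjusted p = 0.00125) and by 2.62 ± 0.65 at D7 (edgeR adjusted p = 0.00471) on the log2 scale. With so few counts these sizes are loose: without replicate 2 of D3 the D3 value was -4.47, and without replicate 1 of D7 the D7 value was -2.43 and just missed the threshold (edgeR adjusted p = 0.0527). Against 2D the log2 fold change was -5.26 at D3 (-6.32 without replicate 2 of D3) and -4.42 at D7, each past the threshold. The gene overlaps *Gm42674* on the same strand over 2119 bases and shares 31.2% of its end words with it, and *Gm42674* was at 0 counts in every library. The treatment of reads that match both genes is not given, so this 0 does not show whether *S100a4* lost reads. The 15 mesenchyme markers, some of whose cells express *S100a4*, summed to 106 and 80.0 CPM *in vivo*, 48.6 and 44.2 CPM in 2D, 28.3 and 22.9 CPM at D3 and 83.5 and 75.5 CPM at D7. *Thy1*, which thymocytes also express, made up 49.5 and 21.2 CPM of the *in vivo* sums, and *Dcn* 53.4 and 50.9 CPM of the D7 sums. Their part in the levels was not tested.

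The remaining S100 members followed other courses. *S100a14*, an S100 protein of epithelia, was at 90.2 and 99.2 CPM *in vivo* and at 146 and 149 CPM in 2D. It was at 22.6 and 25.3 CPM in D3 organoids and at 40.8 and 37.9 CPM in D7 organoids. Its 4 groups did not overlap and ran, from low to high, D3, D7, *in vivo* and 2D. The rise in 2D over *in vivo* was small, 1.56-fold (log2 0.64 ± 0.16, edgeR adjusted p = 0.00456). *S100a14* fell by 1.99 ± 0.18 at D3 (edgeR adjusted p = 1.51e-07) and by 1.27 ± 0.17 at D7 (edgeR adjusted p = 1.87e-05) against *in vivo* on the log2 scale. D7 was higher than D3 by 0.72 ± 0.18 (edgeR adjusted p = 0.00846), a call that was lost without replicate 1 of D3 (0.64, edgeR adjusted p = 0.0656) or replicate 1 of D7 (0.66, edgeR adjusted p = 0.0595). The drop from 2D was 6.17-fold at D3 and 3.75-fold at D7.

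*S100a16*, a broadly expressed S100 protein, was at 35.8 and 42.5 CPM *in vivo* and at 48.8 and 64.2 CPM in 2D. It was at 38.8 and 47.2 CPM in D3 organoids and at 92.7 and 110 CPM in D7 organoids. The D7 libraries were above all the others, and D3 overlapped with *in vivo*. *S100a16* was the member of the 8 that was called higher in D7 organoids than in 2D (1.79-fold, log2 0.84 ± 0.20, edgeR adjusted p = 0.00228), a call that was just lost without replicate 1 of 2D (0.65, edgeR adjusted p = 0.0506). It was 2.57-fold higher at D7 than *in vivo* (log2 1.36 ± 0.20, edgeR adjusted p = 4.97e-05) and 2.35-fold higher than at D3 (log2 1.23 ± 0.20, edgeR adjusted p = 0.000419). The rise in 2D over *in vivo* lay at the threshold (log2 0.52 ± 0.20, edgeR adjusted p = 0.047). It was lost with library sizes alone (0.34, edgeR adjusted p = 0.195), with a filter at a mean of 10 CPM (edgeR adjusted p = 0.0705), and without replicate 1 *in vivo* (0.40, edgeR adjusted p = 0.21), replicate 2 of 2D (0.32, edgeR adjusted p = 0.334), or replicate 1 or 2 of D7 (edgeR adjusted p = 0.055 and 0.0556).

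*S100a13*, which takes part in the release of fibroblast growth factor 1 (FGF1) from cells, was at 17.8 and 12.6 CPM *in vivo* and at 14.2 and 12.4 CPM in 2D. It was at 8.27 and 5.72 CPM in D3 organoids and at 20.5 CPM in both D7 libraries. D3 lay below and D7 above all the other libraries, and 2D overlapped with *in vivo*. *S100a13* was the only member of the 8 not called between 2D and *in vivo* (log2 -0.20 ± 0.30, edgeR adjusted p = 0.638). It was higher at D7 than at D3 by 1.56 ± 0.31 on the log2 scale (edgeR adjusted p = 0.00197). The D3 level was below *in vivo* by -1.13 ± 0.31 (edgeR adjusted p = 0.0118) and below 2D by -0.93 ± 0.32 (edgeR adjusted p = 0.0279). The first of these was lost without replicate 1 *in vivo* (-0.87, edgeR adjusted p = 0.0831) or replicate 2 of D3 (-0.81, edgeR adjusted p = 0.144). The second was lost with library sizes alone (-0.68, edgeR adjusted p = 0.103) and without replicate 1 of 2D (-0.84, edgeR adjusted p = 0.124), replicate 2 of 2D (-1.03, edgeR adjusted p = 0.0569) or replicate 2 of D3 (-0.67, edgeR adjusted p = 0.206). *S100a13* overlaps *S100a1* on the opposite strand over 3509 bases, and the strand used in counting is not given in the sources used here. *S100a1* was at 10.1 and 13.4 CPM at D3 and at 81.2 and 119 CPM at D7, and its part in the *S100a13* counts was not tested. Another gene on the opposite strand, *Chtop*, overlaps *S100a13* over 745 bases and was between 97.8 and 125 CPM. On the same strand as *S100a13*, *Gm56783* overlaps it over 2739 bases and was at or below 3.34 CPM.

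**Figure D2:**
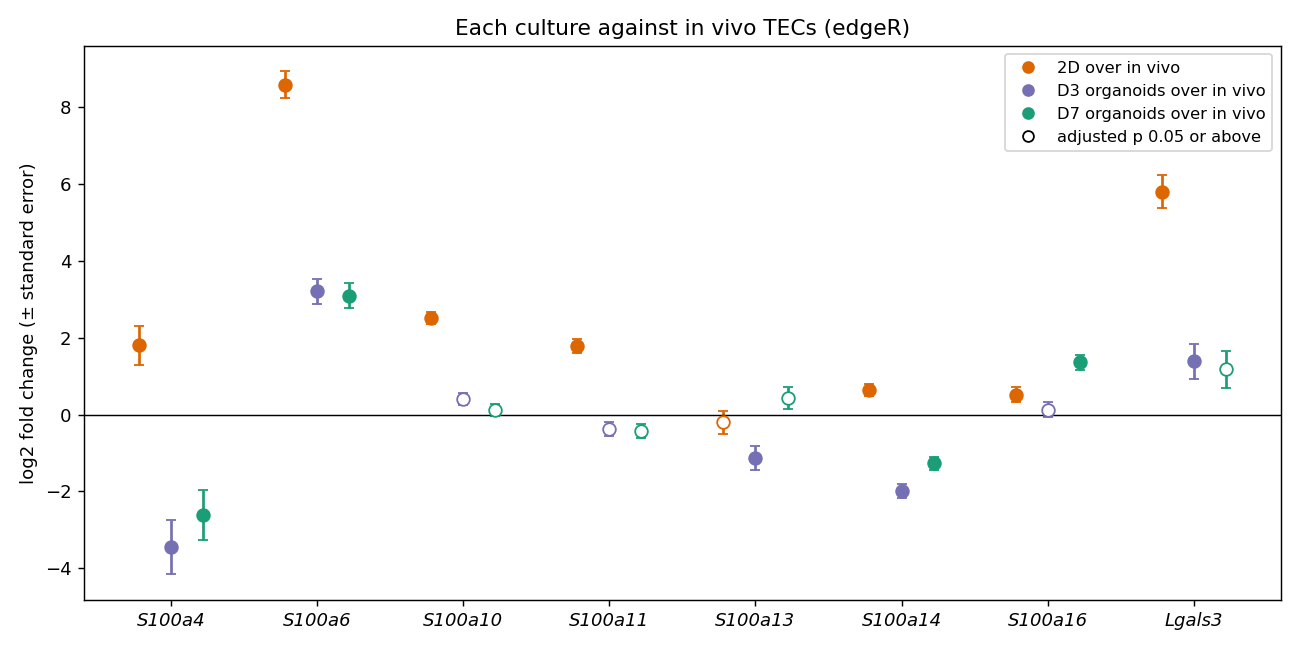
Log2 fold changes (vertical axis, with bars of 1 standard error) of the 8 members not picked for their pattern, for 2D, D3 organoids and D7 organoids against *in vivo* TECs. Filled circles passed an adjusted p of 0.05 in edgeR's test, and open circles did not; 7 of the 8 orange (2D) circles are filled and above 0, led by *S100a6* at 8.59 and *Lgals3* at 5.80.

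*S100a2*, an S100 gene known from basal epithelial cells and as a target of p53 family factors, was the member with its highest level *in vivo*. It held 193 and 340 counts *in vivo* (33.4 and 47.7 CPM), 6 and 7 counts in 2D (1.09 and 1.30 CPM), 0 counts in both D3 libraries and 9 and 8 counts at D7 (1.11 and 1.58 CPM). The *in vivo* libraries were above all the others, and 2D and D7 overlapped. The mean *in vivo* level was at least 87.7-fold higher than in D3 organoids when D3 was set at the floor of 3 counts a library, and the levels in 2D and at D7 were at least 2.58-fold and 2.91-fold higher than D3 on the same floor. Against 2D and D7 the fitted *in vivo* level was 33.6-fold and 30.7-fold higher. The gene runs into *S100a3* on the same strand over 6873 bases, although the last 500 bases of their transcripts share no 50-base word, and 2.5% of its own words there also occur in 165 other genes. Thymocyte markers moved with *S100a2*, high *in vivo* and low in each culture, and their part in its level was not tested. Within the *in vivo* pair, *S100a2* was at 33.4 CPM in replicate 1, where those markers summed to 806 CPM, and at 47.7 CPM in replicate 2, where they summed to 351 CPM.

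Both galectins had their highest levels in 2D. *Lgals1*, a galectin that binds integrins and acts on activated T cells, was at 25.4 and 29.9 CPM *in vivo*, 465 and 461 CPM in 2D, 25.7 and 28.7 CPM in D3 organoids and 8.41 and 9.07 CPM in D7 organoids. D3 and *in vivo* overlapped, the 2D libraries were above all the others and the D7 libraries below all the others. The fitted level in 2D was 16.6-fold that *in vivo*, 17.0-fold that at D3 and 53.1-fold that at D7, and the D7 level was 3.19-fold below *in vivo*. *Lgals3*, a chimeric galectin found in the cytosol, the nucleus and outside epithelial cells, was at 1.04 and 5.47 CPM *in vivo* (6 and 39 counts) and at 187 and 197 CPM in 2D. It was at 11.3 and 6.84 CPM in D3 organoids and at 5.20 and 11.04 CPM in D7 organoids. The 2D libraries stood far above all the others, D3 lay above *in vivo*, and D7 overlapped with both. *Lgals3* was higher in 2D than *in vivo* by 5.80 ± 0.42 on the log2 scale (edgeR adjusted p = 6.71e-09), a value that ran from 5.12 without replicate 1 *in vivo* to 7.51 without replicate 2. It was lower than in 2D by 21.4-fold at D3 and 24.6-fold at D7. The D3 level was called higher than *in vivo* (log2 1.38 ± 0.47, edgeR adjusted p = 0.0348), and the D7 level was not (1.18 ± 0.48, edgeR adjusted p = 0.0655). Both values change call with the library left out or the test. The D3 call was lost with DESeq2 (adjusted p = 0.192) and limma-voom (adjusted p = 0.0551) and without replicate 1 *in vivo* (0.70, edgeR adjusted p = 0.249), replicate 1 or 2 of 2D (edgeR adjusted p = 0.0596 and 0.0595) or replicate 1 of D3 (0.99, edgeR adjusted p = 0.266). The D7 level was called with a replicate block (1.20, edgeR adjusted p = 0.0337), with no filter (edgeR adjusted p = 0.00107), and without replicate 2 *in vivo* (2.87, edgeR adjusted p = 0.00226) or replicate 1 of D7 (1.68, edgeR adjusted p = 0.0166).

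The tested genes of both families that are not among the 10 took other courses. Of the 7 tested, only *Lgals9* was called between 2D and *in vivo*, and it was lower. *S100a1* (0.63, edgeR adjusted p = 0.134) was called higher with a replicate block (0.67, edgeR adjusted p = 0.0259), with no filter (edgeR adjusted p = 0.0398) and without replicate 2 *in vivo* (1.29, edgeR adjusted p = 0.0138). *Lgals9*, a galectin with a pair of sugar-binding domains, was at 45.5 and 25.1 CPM *in vivo*, 5.26 and 4.44 CPM in 2D, 0.84 and 0.28 CPM at D3 (5 and 2 counts) and 3.46 and 2.76 CPM at D7. It fell by 2.86 ± 0.39 in 2D (edgeR adjusted p = 1.45e-05) and by 3.48 ± 0.41 at D7 (edgeR adjusted p = 4.24e-06) on the log2 scale. The thymocyte markers, high *in vivo* and higher in its replicate 1, moved with it, and their part was not tested. *S100a1*, known from muscle, overlaps *S100a13* on the opposite strand over 3509 bases. It was at 6.92 and 14.5 CPM *in vivo*, 13.4 and 20.4 CPM in 2D, 10.1 and 13.4 CPM at D3 and 81.2 and 119 CPM at D7. The D7 libraries were above all the others, 9.16-fold above *in vivo* (log2 3.20 ± 0.32, edgeR adjusted p = 5.93e-07; 3.84 without replicate 2 *in vivo*), 5.90-fold above 2D and 8.44-fold above D3. *S100a3*, a gene of hair cuticle, had 37 and 56 counts *in vivo*, 15 and 22 in 2D, 0 and 0 at D3 and 22 and 5 at D7, at least 15.4-fold higher *in vivo* than at D3 on a floor of 3 counts a library. *Lgals8* lay between 23.2 and 40.7 CPM and *Lgalsl* between 37.4 and 61.3 CPM in all libraries, and neither was called against *in vivo*. *S100g* and *Lgals12* stayed at or under 2.94 CPM and were called in none of the comparisons.

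Of the 28 family genes in the files, 11 were below the filter of 1 CPM in 3 libraries. *S100a8* and *S100a9*, the subunits of calprotectin in neutrophils and monocytes, had 38 and 44 and 9 and 16 counts *in vivo* and at most 2 counts in a culture library. *S100a8* was at least 13.8-fold higher *in vivo* than at D3 and at least 13.2-fold higher than at D7. The 13 myeloid markers summed to 104 and 54.0 CPM *in vivo* and to between 1.53 and 13.8 CPM in the cultures, most of the *in vivo* sum being *Ptprc* (95.0 and 41.8 CPM), which thymocytes also express. *S100z* had 22 and 27 counts in 2D, 0 and 1 *in vivo* and 0 in all organoid libraries, so it was at least 9.72-fold higher in 2D than at D3. The other 8 had 7 counts or fewer in each library. Over the 17 tested genes, 8 were higher and 2 lower in 2D than *in vivo*; without the 2 picked genes these were 7 and 1 of 15. At D3 the 15 had 2 higher and 5 lower than *in vivo*, and at D7 3 higher and 4 lower. Over all genes tested, 19.9% were higher and 21.7% lower in 2D than *in vivo*. At D3 28.2% of all genes were called, split almost evenly by direction, and at D7 34.8% (18.0% higher and 16.8% lower). Without the 2 picked genes, 6 of the 15 were above all other libraries in both 2D libraries (19.0% of all genes tested). At D3 8 of the 15 were below all other libraries (7.34% of all genes tested), and 3 of these 8 (*S100a3*, *S100g* and *Lgals12*) held 3 counts or fewer in both D3 libraries.

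All 8 S100 members lie in the S100 cluster of mouse chromosome 3, and the galectins lie on chromosomes 15 and 14. In the GRCm39 annotation these 8 genes run from *S100a13* at chr3:90416091-90431912 through *S100a14* at chr3:90434082-90436144, *S100a16* at chr3:90444172-90450462, *S100a2* at chr3:90467670-90498838, *S100a4* at chr3:90511074-90513354 and *S100a6* at chr3:90520140-90535843 to *S100a11* at chr3:93414382-93435293 and *S100a10* at chr3:93462213-93474510, all on the plus strand. *Lgals1* is at chr15:78810875-78814670 and *Lgals3* at chr14:47605208-47623624, also on the plus strand. Along the cluster, *S100a2* and *S100a3*, both highest *in vivo*, sit between *S100a16*, highest at D7, and *S100a4* and *S100a6*, highest in 2D. The stretch from *S100a13* to *S100a10* also holds the epidermal differentiation complex, which encodes proteins of the cornified envelope. Of 108 other genes there 11 were tested, and 6 were higher in 2D than *in vivo* and 0 lower (19.9% and 21.7% of all genes). Among the 6, *Gm56783*, *Sprr2k*, *Sprr1b* and *Ivl* had *in vivo* means of at most 0.491 CPM. They passed the filter through culture libraries and could hardly be called lower, so the count of 0 is partly set by the filter. *Sprr1a*, the most abundant of the 6 in 2D, rose from 4.15 and 3.79 CPM *in vivo* to 193 and 243 CPM in 2D (log2 5.77). It was at 47.6 and 35.0 CPM at D3 and at 4.70 and 2.56 CPM at D7. Of the 27 listed genes of the complex 6 were tested. In 2D 3 were higher than *in vivo* and 0 lower (19.9% and 21.7% of all genes). At D3 3 were higher and 0 lower, where 28.2% of all genes were called, split almost evenly by direction. *Sprr1b*, *Sprr2a3*, *Ivl* and *Loricrin* had *in vivo* means of at most 0.648 CPM and passed the filter through culture libraries. They could hardly be called lower, so the counts of 0 lower in this list, at D7 too, are partly set by the filter. At D7 0 were called by edgeR; at an unadjusted p below 0.05 1 was higher and 0 lower, and DESeq2 and limma-voom called 0.

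**Figure D3:**
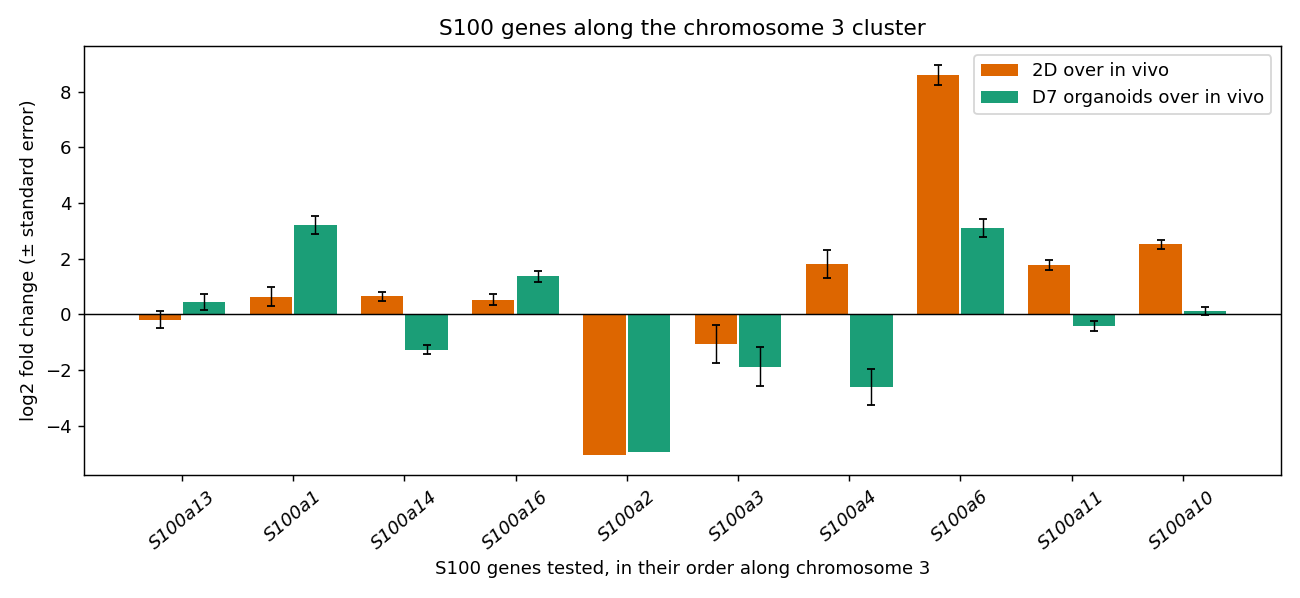
Log2 fold changes over *in vivo* TECs (vertical axis) of the 10 S100 genes tested on chromosome 3, in their order along the chromosome, for 2D (orange) and D7 organoids (green). Error bars are 1 standard error and are left out for *S100a2*, which was picked for its pattern. In 2D the bars of *S100a2*, *S100a3* and *S100a13* point down, but *S100a3* and *S100a13* did not pass the test. Those of *S100a4* at 1.80, *S100a6* at 8.59, *S100a11* at 1.78 and *S100a10* at 2.52 point up.

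The windows run from 250 bases before to 50 bases after the start site of the Ensembl canonical transcript, a single start for each gene. They are shown for the member with the largest change (*S100a6*), for *S100a11* as a second annexin partner that rose in 2D, and for *S100a2*, which was highest *in vivo*. The annotated spans of *S100a11* and *S100a2* begin upstream of their windows, so other starts of these genes were not covered. The windows are the plus strand of GRCm39 at chr3:90519890-90520189, chr3:93427427-93427726 and chr3:90497304-90497603, and capitals mark matches to the 3 motifs searched on both strands.
S100a6: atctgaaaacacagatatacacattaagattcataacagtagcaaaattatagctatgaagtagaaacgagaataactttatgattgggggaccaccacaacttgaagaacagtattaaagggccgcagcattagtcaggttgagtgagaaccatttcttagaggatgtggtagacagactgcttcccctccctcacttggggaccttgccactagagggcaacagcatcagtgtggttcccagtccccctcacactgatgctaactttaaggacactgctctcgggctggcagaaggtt
S100a11: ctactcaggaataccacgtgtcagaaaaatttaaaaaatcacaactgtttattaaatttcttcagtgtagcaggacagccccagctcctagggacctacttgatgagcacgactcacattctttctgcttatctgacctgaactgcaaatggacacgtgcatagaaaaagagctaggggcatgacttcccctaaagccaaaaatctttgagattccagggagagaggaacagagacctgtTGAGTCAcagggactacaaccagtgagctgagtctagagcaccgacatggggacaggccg
S100a2: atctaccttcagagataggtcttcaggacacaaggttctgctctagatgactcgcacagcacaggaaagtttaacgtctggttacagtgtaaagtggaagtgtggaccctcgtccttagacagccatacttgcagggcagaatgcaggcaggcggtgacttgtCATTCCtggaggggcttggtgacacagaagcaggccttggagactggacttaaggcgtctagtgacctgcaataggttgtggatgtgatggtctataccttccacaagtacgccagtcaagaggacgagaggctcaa
The motifs were TGANTCA (bound by AP-1), GGAATG (bound by TEAD factors) and TATAAA (the TATA box). TGANTCA was found in *S100a11*, 10 bases before the start site, and in 7.14% of the windows of 21770 protein-coding starts. GGAATG was found in *S100a2*, on the minus strand 87 bases before the start, and in 14% of all windows. TATAAA was found in *S100a4*, 29 bases before the start, and in 13.2% of all windows. The windows of *S100a6*, *S100a10* and *Lgals3* held none of the 3, nor did those of *S100a13*, *S100a14* and *S100a16*.

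The annexins, the main protein partners of S100 proteins, were also high in 2D. Of 10 annexin genes tested, 8 were higher in 2D than *in vivo* and 0 lower (19.9% and 21.7% of all genes), with a median log2 fold change of 1.85; the count of lower genes was also 0 at an unadjusted p below 0.05, with DESeq2 and with limma-voom. At D3 3 were higher and 4 lower than *in vivo* (median -0.68), where 28.2% of all genes were called, and at D7 4 were higher and 3 lower (median -0.33), where 34.8% were called. *Anxa1*, a partner of S100A11 and an inhibitor of inflammation, was at 21.5 and 22.3 CPM *in vivo*, 3386 and 2610 CPM in 2D, 178 and 144 CPM at D3 and 72.6 and 34.9 CPM at D7. *Anxa2*, the partner of S100A10, was at 142 and 172 CPM *in vivo*, 844 and 898 CPM in 2D, 74.1 and 89.7 CPM at D3 and 101 and 133 CPM at D7. Both thus had their highest libraries in 2D, but at D3 *Anxa1* was above *in vivo* and *Anxa2* below it. The rise in 2D was 7.09 for *Anxa1* and 2.47 for *Anxa2* on the log2 scale, the latter beside 2.52 for *S100a10*. On the same scale *Anxa3* rose by 6.63, *Anxa8* by 3.71 and *Anxa5* by 1.43 in 2D. *Anxa3* was also higher than *in vivo* at D7, by 3.84. *Anxa7* (-0.20) and *Anxa9* (1.01) did not pass in 2D. *Ahnak*, a giant scaffold that the annexin A2 and S100A10 complex holds at the membrane, was at 84.3 and 131 CPM *in vivo*, 474 and 890 CPM in 2D, 38.5 and 56.4 CPM at D3 and 30.4 and 43.0 CPM at D7. It rose in 2D by 2.66 on the log2 scale, and its organoid libraries lay below the *in vivo* ones.

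**Figure D4:**
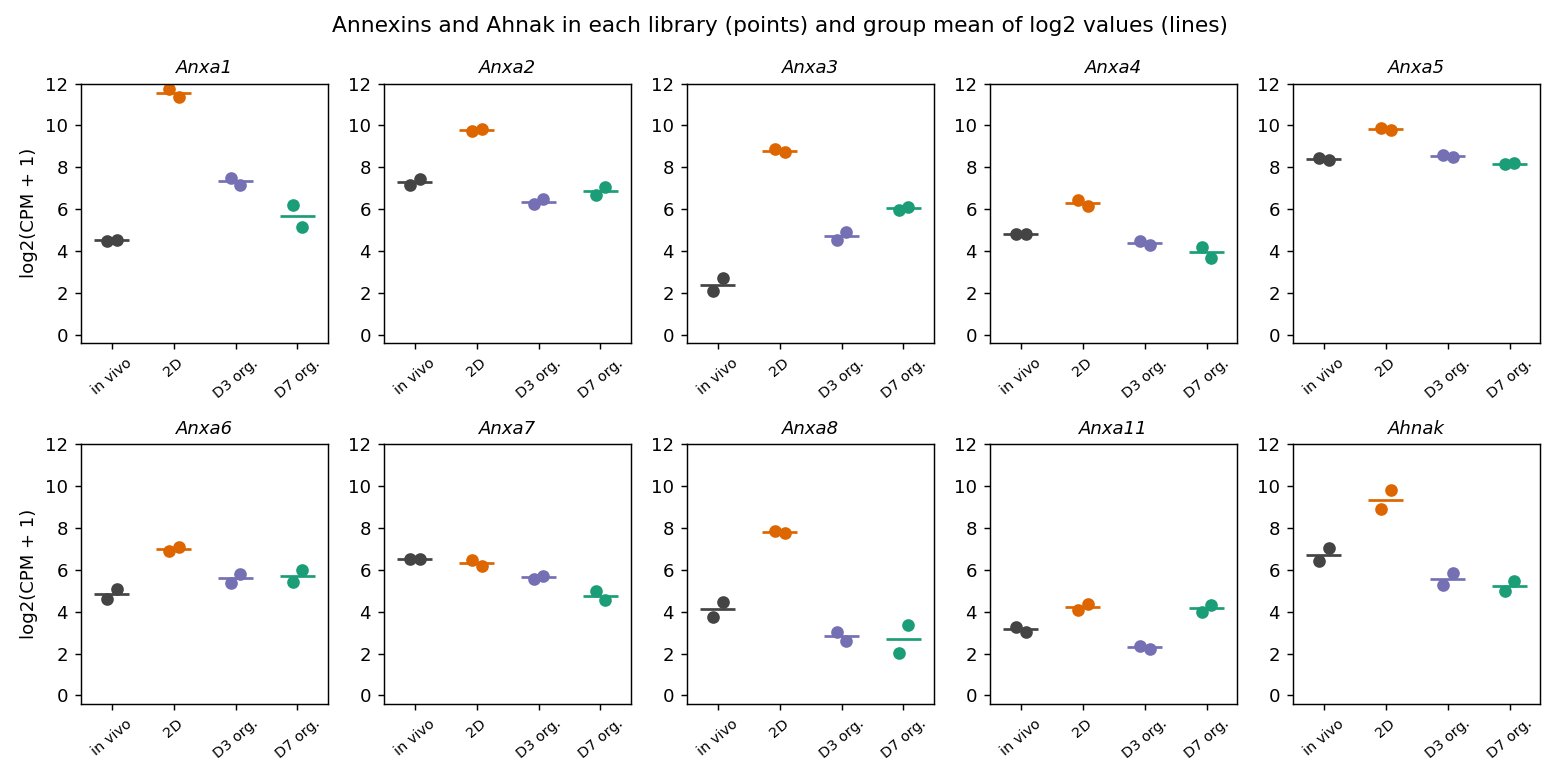
Annexin genes and *Ahnak* on a log2(CPM + 1) axis, with a point for each library and a line at the mean of the log2 values of the group. *Anxa1*, *Anxa2*, *Anxa3*, *Anxa4*, *Anxa5*, *Anxa6*, *Anxa8* and *Ahnak* have both 2D points above all the others, with *Anxa1* reaching 3386 CPM, while *Anxa7* does not.

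Other partners of S100 proteins moved less evenly. Of 15 partner, target and receptor genes tested, 6 were higher in 2D than *in vivo* and 0 lower by edgeR (1 lower at an unadjusted p below 0.05, 0 with DESeq2 and 1 with limma-voom; median 0.79), 5 were higher and 3 lower at D3, and 4 were higher and 4 lower at D7. Over all genes 41.6% were called in 2D (19.9% higher and 21.7% lower), 28.2% at D3 and 34.8% at D7. The share of partner genes called lay near that of all genes in 2D and above it at D3 and D7. *Myh9*, the non-muscle myosin heavy chain that S100A4 binds, rose in 2D by 2.25 on the log2 scale. *Cacybp*, the partner of S100A6, lay between 115 and 156 CPM and was called in none of the comparisons, unlike *S100a6* itself. *Ager*, which encodes RAGE, the receptor of secreted S100 proteins, was at or below 3.71 CPM in every library. *Fgf1*, the growth factor released with S100A13, was at 2.60 and 1.82 CPM *in vivo*, 32.5 and 30.0 CPM in 2D, 112 and 116 CPM at D3 and 172 and 189 CPM at D7, and unlike *S100a13* it was higher in each culture than *in vivo* (log2 3.83 in 2D and 6.36 at D7). Of 16 calmodulin and other EF-hand genes tested, 6 were higher and 2 lower in 2D (median 0.36), 3 higher and 2 lower at D3, and 2 higher and 3 lower at D7. The shares of the EF-hand genes called at D3 and D7 lay near those of all genes. *Capns1*, the small subunit of the calpain proteases, was higher in 2D by 1.46 on the log2 scale. *Calm2*, a calmodulin gene, was higher by 0.52, a call that was lost with library sizes alone (edgeR adjusted p = 0.0978) and without replicate 2 *in vivo* (edgeR adjusted p = 0.11) or replicate 1 of 2D (edgeR adjusted p = 0.134), and *Calm3* (0.02) did not pass.

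Ligands of galectins and the enzymes that build their sugar chains changed in both directions. Of 15 tested, 7 were higher and 4 lower in 2D than *in vivo* (median 0.69), and at D3 and D7 alike 5 were higher and 5 lower. Over all genes 41.6% were called in 2D (19.9% higher and 21.7% lower), 28.2% at D3 and 34.8% at D7. The genes of this list were thus called more often than all genes in each culture, but changes in both directions were common to all genes. In 2D *Itgb1*, the beta chain of many integrins, rose by 2.47, *Cd44*, the hyaluronan receptor, by 2.95 and *Lamp1*, a lysosomal membrane glycoprotein, by 1.67 on the log2 scale, while its relative *Lamp2* was at -0.90 and called lower. *Mcam*, an adhesion glycoprotein, rose by 6.99. *Cd44* was at 60.7 and 59.1 CPM *in vivo*, 498 and 428 CPM in 2D, 55.0 and 47.6 CPM at D3 and 12.4 and 16.0 CPM at D7. Its course ran close to that of *Lgals1*, with D7 below all the others. *St6gal1*, the enzyme that adds sialic acid to galactose and so blocks binding of galectin 1, rose in 2D by 4.91 (6.04 without replicate 2 *in vivo*). *Lgals3bp*, a secreted ligand of galectin 3, fell in 2D by 3.17 from 44.6 and 60.6 CPM to 7.26 and 4.44 CPM, while *Lgals3* rose. The leukocyte glycoproteins *Ptprc* and *Spn* were among the 4 lower genes and moved with the thymocyte markers. *Mcam*, *St6gal1*, *Lgals3bp*, *Spn*, *Ptprc*, *Anxa7*, *Anxa8*, *Anxa9* and *Calm3* were named after their values were seen.

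By the size of the difference in centred log2(CPM + 1) values over the 8 libraries, *Lgals1* was most like *Prkg2* (root mean square difference 0.28), *F2rl1* (0.39), *Cd44* (0.44), *Pdgfb* (0.45) and *Ifi202b* (0.47) among 9025 genes with a mean of at least 10 CPM. The mean levels of *F2rl1*, for example, were 13.2 CPM *in vivo*, 408 CPM in 2D, 12.5 CPM at D3 and 5.34 CPM at D7. *S100a2* was most like *Gper1* (0.43), *Zfp36* (0.44), *Pkhd1l1* (0.45), *Ly75* (0.47) and *Ppp1r27* (0.52). *Ly75*, a cortical TEC marker also called CD205, was at 389 CPM *in vivo* and at 25.3, 20.8 and 39.7 CPM in 2D, D3 and D7. Among the members, the closest pairs were *S100a10* with *S100a11* (0.34), *S100a13* with *S100a16* (0.52) and *S100a4* with *S100a14* (0.53). As *S100a2* was picked for its pattern over these groups, its distance of at least 1.77 from every other member is a description only.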

How the data were processed

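Bulk RNA from 8 libraries of embryonic mouse TECs was sequenced from the 3′ end (QuantSeq), and the authors used STAR for alignment to the mouse genome (GRCm39). The authors deposited whole-number counts per Ensembl gene, not normalised, 1 file a library. The submitters' processing notes also list R 4.1.2, edgeR and limma. The annotation release, the strand and the treatment of multimapping reads in counting are not given in the sources used here. Gene names and positions came from GENCODE M39 of GRCm39, in which 56236 of 56923 identifiers were found and 687 were not.

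A gene was kept where 3 or more of the 8 libraries reached 1 CPM (14504 genes). Library sizes were scaled by TMM, all 4 groups entered a single fit, and edgeR's quasi-likelihood test gave 6 comparisons, adjusted over all genes tested after Benjamini and Hochberg (R 4.3.3, edgeR 4.0.16, limma 3.58.1, DESeq2 1.42.0, Python 3.11.15, pandas 2.3.3, matplotlib 3.10.9). CPM values use the scaled library sizes, and log2 levels use a pseudocount of 1. A floor of 3 counts a library, which covers counting error only, stood in where a group was at 0. Likeness to *Lgals1* and *S100a2* was the root mean square difference of centred log2 values. The code was tested on simulated data.

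The members and all gene lists (annexins, S100 partners, galectin ligands and glycan enzymes, EF-hand genes, the epidermal differentiation complex and cell type markers) were chosen with earlier results of these data known. Besides the members and their families, the genes named were, of each list, up to 4 with the highest mean CPM among those called in 2D or at D7 against *in vivo*, plus *Anxa2*, *Ahnak*, *Cacybp*, *Ager*, the 5 genes most like each picked gene, and genes that overlap a member; exceptions are marked in the text. Alternatives were DESeq2 size factors, library sizes alone, ribosomal RNA genes left out, the DESeq2 Wald test, limma-voom, no filter, a filter at a mean of 10 CPM, a replicate block and each library left out. Their use on the partner lists and on genes that are no members was added after the data were seen. Protein sequences were not used here, and some items are not reported here.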

Additional observations from a re-analysis of the deposited data

How the results depend on the processing

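Over the 8 fits that each left out 1 library, the number of S100 and galectin family genes called ran from 9 to 11 in 2D against *in vivo* (10 as reported), 6 to 9 at D3 against *in vivo* (8), 8 to 10 at D7 against *in vivo* (9), 10 to 11 at D3 against 2D (11), 8 to 10 at D7 against 2D (10) and 7 to 9 between D7 and D3 (8). Against *in vivo* in 2D, at D3 and at D7, the annexins called ran from 7 to 8, 4 to 7 and 5 to 8, the S100 partners from 5 to 8, 5 to 8 and 5 to 9, the galectin ligands from 9 to 12, 8 to 10 and 6 to 10, the EF-hand genes from 5 to 10, 3 to 5 and 4 to 6, and the epidermal differentiation complex from 2 to 3, 1 to 3 and 0 to 0. The family counts above include *Lgals1* and *S100a2*, which were picked for their pattern, so they only describe the fits. Without these 2 genes, the reported fit called 7 higher and 1 lower in 2D against *in vivo*, 2 and 5 at D3 and 3 and 4 at D7. It called 0 higher and 9 lower at D3 against 2D, 3 and 6 at D7 against 2D, and 6 and 0 at D7 against D3. With library sizes alone 5 EF-hand genes were called in 2D against *in vivo* (8 as reported), and the cause was not tested. With a filter at a mean of 10 CPM, which tests fewer genes, 1 gene of the epidermal complex was called in 2D and 1 at D3 (3 and 3 as reported), and *S100a4* had no value. Leaving out replicate 2 of D7 took the calls over all genes from 5042 to 3016 for D7 against *in vivo* and from 3012 to 1183 for D7 against D3, which was 1660 without replicate 1 of D3.

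Among the values with a test, changes of sign occurred only in those that had not passed, each without a single library. For D7 over D3 they were *S100a6* (0.39 without replicate 1 of D7, in a range over the libraries from -0.81), *S100a11* (0.22 without replicate 2 of D3 and 0.03 without replicate 1 of D7, from -0.33) and *Lgals3* (0.18 without replicate 1 of D3 and 0.30 without replicate 1 of D7, from -0.78). Against *in vivo* they were *S100a13* (0.067, from -0.42) and *Lgalsl* (0.12) in 2D, without replicate 1 and replicate 2 *in vivo*, *S100a1* at D3 (-0.30 without replicate 1 *in vivo* and -0.04 without replicate 2 of D3, up to 0.77) and *Sprr1a* at D7 (0.25 without replicate 2 of D7, from -0.63). Of the picked genes, *Lgals1* at D3 over *in vivo* ran from -0.14 to 0.10 and *S100a2* at D7 over 2D from -0.09 to 0.40 as libraries were left out. Of the values of the 8 other members, 353 with a library left out and 361 under another setting kept direction and call, while 18 and 5 lost the call and 7 and 12 gained it. Library sizes alone moved the median log2 fold change of all genes from -0.06 to -0.24 in 2D over *in vivo*, from 0.03 to 0.29 at D3 over 2D and from 0.10 to 0.31 at D7 over 2D.

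Same-numbered libraries deviated together with correlations of 0.04 to 0.15, not all above 0.1, so the replicate numbers were not taken to pair the samples. With a replicate block 11, 9, 10, 11, 10 and 8 family genes were called in the 6 comparisons, in the order above. These counts, too, include the picked genes. Between D7 and D3 the block called 3587 genes in all (3012 as reported). Among the members the block added calls for *S100a10* at D3 and for *S100a11* and *Lgals3* at D7, against *in vivo*. At 3 counts, or 0.371 to 0.592 CPM, a level cannot be told from 0.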
